A study of Mus musculus with 17 samples.

Results

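The injection of Alzheimer's disease (AD) tau into the mouse hippocampus was compared with the injection of phosphate-buffered saline (PBS), averaged over 2 genotypes. The comparison used 12 bulk RNA-seq libraries of the 17 in the series: 6 Tau libraries (3 WT, 3 KO) against 6 PBS libraries (3 WT, 3 KO), blocked by genotype, and it asked which genes moved the same way in both genotypes. All 12 libraries came from male mice injected in the dorsal hippocampus at 6 months of age, and the tissue was taken 6 months later as slices of dorsal hippocampus. The 4 groups were WT PBS (libraries 791, 792 and 793), WT Tau (771, 772 and 773), KO PBS (751, 752 and 753) and KO Tau (711, 712 and 713). Values below follow this order. KO mice lacked Acss2, which encodes acetyl-CoA synthetase 2, constitutively and from development on, and were bred in homozygous crosses beside their WT controls. Controls were injected with PBS in place of the preparation, which was enriched for sarkosyl-insoluble tau from human AD frontal cortex, so the difference covers everything that the preparation held. All mice were perfused with paraformaldehyde before the RNA was extracted. The labels do not say that each library came from a separate mouse, so the p-values measure only the spread between these libraries, which may be technical. The other 5 libraries came from female mice, which had no PBS group. They were left out of the comparisons described here, apart from an alternative fit on all 17 libraries, and their levels are set against the male PBS libraries at the end.

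Tau is a microtubule-associated protein of axons. In AD it becomes hyperphosphorylated and aggregates, and aggregates taken up by a neuron can seed the misfolding of its own tau and pass along connected neurons, so that mice with an unmodified tau gene develop inclusions far from the injection. The hippocampus, which holds the dentate gyrus and the CA fields, is affected early in AD. Microglia and astrocytes respond to such deposits with activation programs, and synaptic loss and oxidative stress are commonly described in tauopathy. ACSS2 makes acetyl-CoA from acetate and supplies it for histone acetylation in neurons.

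Library totals ran from 15853495 to 21847844 counts. Levels are given as CPM (counts scaled to library size with TMM factors), and a gene at 0 could still lie as high as 3 counts, or 0.137 to 0.189 CPM by library, from counting error alone. Among the 66 pairs of libraries 0 were identical. Acss2 stood at 43.7 to 54.7 CPM in the 6 WT libraries and at 3.04 to 5.75 CPM in the 6 KO libraries, in the direction of the labels. The glutamatergic neuron marker Slc17a7 was at 1409.5 to 1960.2 CPM and the dentate granule cell marker Prox1 at 9.14 to 64.7 CPM. Some libraries stood apart. Library 713 (KO Tau) and library 772 (WT Tau) carried the highest summed levels of choroid plexus markers, library 752 (KO PBS) had a striatum marker score of 5.74 on the log2 CPM scale against 2.83 to 3.81 in the other 11, and library 711 (KO Tau) had the highest astrocyte, microglia and ribosomal protein scores. Values without 1 of these libraries are given beside several of the results.

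No gene passed the test for a Tau difference averaged over both genotypes. With edgeR's quasi-likelihood test blocked by genotype, 0 of 15098 genes (0%) reached a false discovery rate (FDR) of 0.05, and the lowest FDR was 0.891. At an unadjusted p under 0.05 there were 778 genes (5.15%), of which 432 (2.86%) were higher and 346 (2.29%) were lower with Tau. DESeq2 on the same design left 0 genes past its threshold as well, its lowest adjusted p being 0.216, while 810 had a p under 0.05 before adjustment. By edgeR, 0 genes passed within WT (281 before adjustment), 0 within KO (1201) and 0 for the genotype by treatment interaction (631, or 4.18%). Acss2 (0.992) and Mapt (0.986) had the highest FDR of the genes named by rule, and the 24 led by Foxf1 and Pcdhga2 each had an FDR of 0.891. The values that follow are therefore measured differences that did not pass this test, and "higher" and "lower" state the order of the libraries. The WT and KO contrasts share no library.

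The log2 fold changes had the same sign in both genotypes for 7859 of 15098 genes (52.1%), of which 3766 were higher and 4093 lower in both. Across genes, which are not independent replicates and share each library's depth and cell mix, Pearson's r between the WT and KO log2 fold changes was 0.0432 and Spearman's correlation was 0.01.

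A stricter description asked that the 3 Tau libraries lie wholly above, or wholly below, the 3 PBS libraries within WT and again within KO. This held for 92 genes (0.609% of those tested): 53 (0.351%) were higher with Tau in both genotypes and 39 (0.258%) were lower in both. A further 51 genes (0.338%) separated in both genotypes but in opposite directions, 30 higher in WT and lower in KO and 21 the reverse. Taken singly, WT separated 1812 genes (12%) in either direction, 6.59% higher and 5.41% lower. KO separated 1294 (8.57%), 3.83% higher and 4.74% lower. How many would separate the same way in both by coincidence was not tested. The median log2 fold change was 0.26 among the 53 and -0.20 among the 39, so most of these differences were small, and the lowest FDR among them was again 0.891. Of the 92, 1 higher and 1 lower gene had an unadjusted interaction p under 0.05 (Chchd1 and Hspa12a), and neither passed the interaction test after adjustment.

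**Figure D1:**
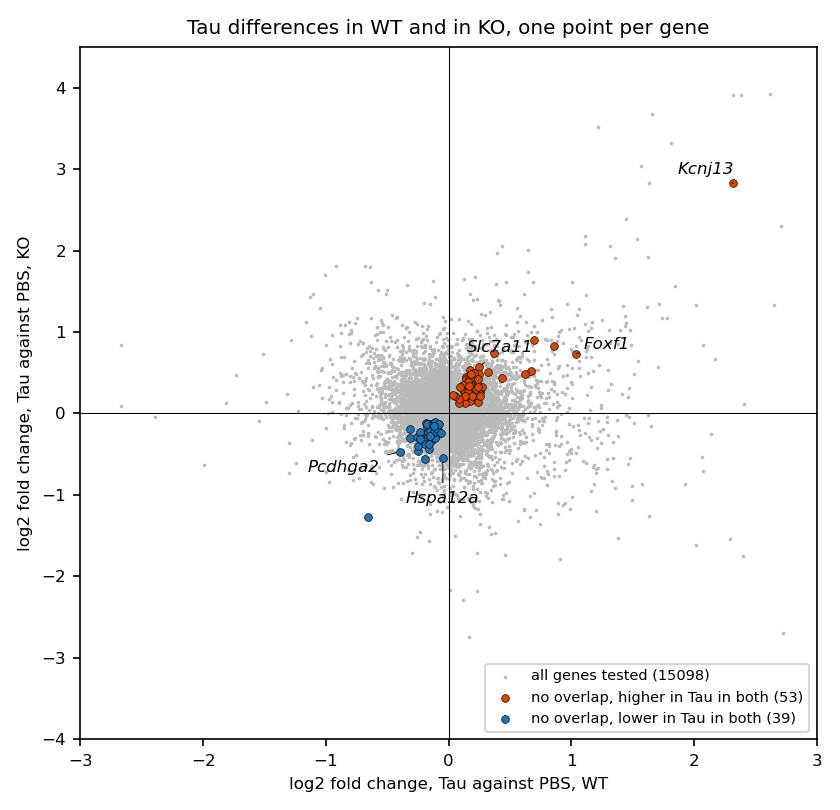
Log2 fold change of Tau against PBS in WT (x axis) and in KO (y axis) for the 15098 genes tested, of which 4 lie outside the axes. Orange points are the 53 genes with no overlap that were higher with Tau in both genotypes and blue points the 39 that were lower; over all genes 52.1% lie in the 2 quadrants of equal sign, with Pearson's r of 0.0432.

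The promoters of 3 genes are shown before the values, because the motifs in them belong to programs with which these genes are commonly associated: cystine import and amino acid stress (Slc7a11), peroxide defense (Prdx1) and the clock and activity response (Per1). Each is the 250 bases upstream of the RefSeq start, GRCm38.p6, read 5′ to 3′ on the gene's strand, from Slc7a11 at chr3:50443614-50443863 (minus strand), Prdx1 at chr4:116685349-116685598 (plus strand) and Per1 at chr11:69098699-69098948 (plus strand). Capitals mark the amino acid response element TTGCATCA in Slc7a11, the antioxidant response element TGACNNNGC in Prdx1 and the E-box CACGTG in Per1, on either strand.
Slc7a11: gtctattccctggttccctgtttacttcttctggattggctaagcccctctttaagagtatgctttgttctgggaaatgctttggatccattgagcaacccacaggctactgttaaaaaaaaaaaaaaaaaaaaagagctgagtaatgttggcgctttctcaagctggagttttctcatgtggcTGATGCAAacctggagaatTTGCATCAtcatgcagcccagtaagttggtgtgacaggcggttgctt
Prdx1: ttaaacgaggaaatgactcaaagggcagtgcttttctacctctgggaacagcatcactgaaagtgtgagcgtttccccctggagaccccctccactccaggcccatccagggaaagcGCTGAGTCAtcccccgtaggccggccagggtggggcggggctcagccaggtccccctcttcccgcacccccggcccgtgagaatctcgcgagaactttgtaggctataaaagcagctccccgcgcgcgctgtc
Per1: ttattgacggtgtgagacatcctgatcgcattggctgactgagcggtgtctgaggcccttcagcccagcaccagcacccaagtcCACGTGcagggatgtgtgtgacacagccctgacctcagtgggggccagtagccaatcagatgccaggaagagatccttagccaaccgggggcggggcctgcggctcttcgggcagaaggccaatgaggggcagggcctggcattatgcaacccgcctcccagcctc

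The Slc7a11 promoter held 2 copies of TTGCATCA, 66 bases upstream on the minus strand and 47 bases upstream on the plus strand, a motif present in 251 of 27025 mouse promoter windows of 300 bases (0.929%). Among the 78 of the 92 genes with a window in the table, the only other gene with a match was Map3k13. TGACNNNGC stood 133 bases upstream in Prdx1, on the minus strand. It was found in 10 of 44 windows of the genes higher in both genotypes (22.7%) and in 6 of 34 windows of the genes lower in both (17.6%), beside 12.5% of all windows. TGACNNNGC also matched in Per1, 215 and 148 bases upstream on the plus strand, and is not in capitals there. The E-box stood 166 bases upstream in Per1 and was in 6.82% and 8.82% of the 2 sets beside 7.24% of all windows. The shares of all windows include genes that were not tested, while both sets come from tested genes only. Both strands were searched, and these are matches of letters and not binding sites.

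Slc7a11, among the genes higher with Tau in both genotypes, encodes xCT, the cystine-glutamate antiporter that feeds glutathione synthesis. It stood at 37.7, 38.8 and 40.5 CPM in WT PBS and at 43.4, 49.3 and 47.0 CPM in WT Tau, and at 33.1, 38.5 and 42.9 CPM in KO PBS and 53.5, 67.5 and 48.0 CPM in KO Tau. Every Tau library lay above every PBS library of its genotype, by the least in WT library 771, and the log2 fold change was 0.41 (SE 0.10), 0.25 in WT and 0.57 in KO. Prdx1, a peroxiredoxin that reduces hydrogen peroxide, was at 82.8, 85.1 and 79.9 CPM in WT PBS, 103, 98.8 and 93.6 CPM in WT Tau, 82.4, 81.0 and 85.4 CPM in KO PBS and 117, 97.6 and 87.5 CPM in KO Tau. All 6 Tau libraries lay above all 6 PBS libraries, with a log2 fold change of 0.27 (SE 0.07). Gpx4, the glutathione peroxidase that reduces lipid peroxides, was chosen after its values were seen. It was at 115 to 116 CPM in WT PBS, 123 to 134 CPM in WT Tau, 107 to 135 CPM in KO PBS and 142 to 153 CPM in KO Tau, with a log2 fold change of 0.20 (SE 0.06).

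Atp1b3, the beta-3 subunit of the sodium-potassium ATPase (chr9:96332655-96364442), was at 89.2, 95.1 and 85.5 CPM in WT PBS, 106, 119 and 98.3 CPM in WT Tau, 85.0, 94.1 and 99.8 CPM in KO PBS and 114, 107 and 113 CPM in KO Tau. Its log2 fold change of 0.26 (SE 0.06) was nearly equal in WT (0.25) and KO (0.27). Supt4a, a subunit of the DSIF elongation factor of RNA polymerase II (chr11:87737552-87743623), was at 27.7, 27.9 and 28.0 CPM in WT PBS, 30.0, 29.6 and 33.6 CPM in WT Tau, 28.8, 29.5 and 29.6 CPM in KO PBS and 35.1, 35.7 and 35.0 CPM in KO Tau. Both genotypes separated, and the PBS libraries differed very little among themselves. Spcs1, a subunit of the signal peptidase complex, ranged over 53.3 to 60.4 CPM in the 6 PBS libraries and over 60.9 to 68.4 CPM in the 6 Tau libraries, without overlap, and its log2 fold change was 0.18 in WT and in KO. Adi1, an enzyme of the methionine salvage pathway, had a log2 fold change of 0.26 (SE 0.08), and E130311K13Rik one of 0.28 (SE 0.08).

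The remaining higher genes included low-abundance transcripts. Foxf1, a forkhead transcription factor of mesenchymal cells, was at 0.477, 0.466 and 0.356 CPM in WT PBS and 0.824, 0.956 and 0.927 CPM in WT Tau, and at 0.695, 0.376 and 0.464 CPM in KO PBS and 0.947, 0.774 and 0.845 CPM in KO Tau. The log2 fold change was 0.88 (SE 0.20), and it had the lowest p of the 53. These levels are a few times the 0.137 to 0.189 CPM that 3 counts represent. The lincRNA 2410018L13Rik stood at 0.356 to 0.836 CPM with PBS and 0.648 to 1.70 CPM with Tau. Its log2 fold change was 0.84 (SE 0.25), with separation inside each genotype but overlap across them. Arhgap18, a GTPase-activating protein, ranged from 4.76 to 5.39 CPM with PBS and from 5.66 to 7.76 CPM with Tau, and Chchd1, a protein of the mitochondrial ribosome, had a log2 fold change of 0.14 in WT and 0.44 in KO.

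**Figure D2:**
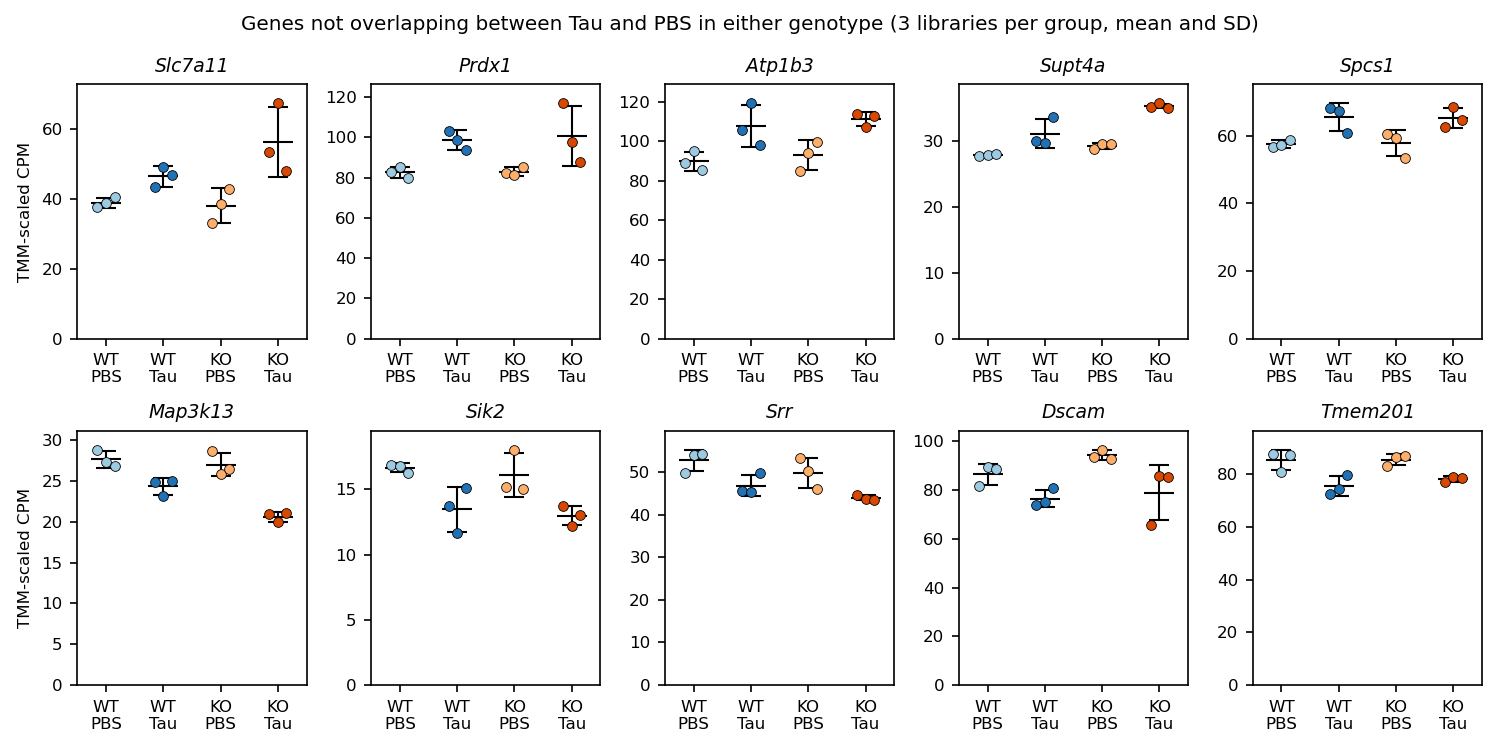
TMM-scaled CPM (y axis, from 0) of 5 genes higher and 5 genes lower with Tau in both genotypes, 1 point per library in the 4 groups (x axis), with the mean and SD of 3 libraries as black bars. In each panel the 3 Tau points lie wholly above (top row) or below (bottom row) the 3 PBS points of the same genotype; Supt4a ran from 27.7 to 29.6 CPM with PBS and from 29.6 to 35.7 CPM with Tau.

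Map3k13, among the genes lower with Tau in both genotypes, encodes the leucine zipper kinase LZK, an upstream kinase of JNK signaling after axon injury, and lies at chr16:21794346-21933439 in GRCm38, the build of all gene positions given here. It was at 28.8, 27.3 and 26.8 CPM in WT PBS, 24.9, 23.2 and 24.98 CPM in WT Tau, 28.6, 25.8 and 26.5 CPM in KO PBS and 20.9, 19.9 and 21.0 CPM in KO Tau. No Tau library reached the lowest PBS library of either genotype, and the log2 fold change was -0.28 (SE 0.06), -0.19 in WT and -0.38 in KO. Sik2, a salt-inducible kinase that phosphorylates coactivators of CREB (chr9:50892801-51009073), was at 16.9, 16.8 and 16.2 CPM in WT PBS, 13.7, 11.6 and 15.1 CPM in WT Tau, 15.2, 18.02 and 14.996 CPM in KO PBS and 13.7, 12.2 and 13.0 CPM in KO Tau. Its log2 fold changes of -0.31 in WT and -0.30 in KO were nearly equal (-0.31 over both, SE 0.08).

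Pcdhga2, a gamma-protocadherin, belongs to a cluster of cell-adhesion genes from which neurons draw individual sets of surface isoforms. It stood at 18.04, 23.5 and 17.8 CPM in WT PBS, 12.8, 15.8 and 16.7 CPM in WT Tau, 22.8, 22.03 and 20.7 CPM in KO PBS and 16.1, 14.9 and 16.1 CPM in KO Tau. The Tau and PBS libraries did not overlap even across genotypes, and its log2 fold change of -0.43 (SE 0.09) had the lowest p of the 92 genes. The isoforms of the cluster share constant exons, so reads can be divided between them unevenly. Dscam, another adhesion molecule of neurite self-avoidance, was at 81.5, 89.4 and 88.7 CPM in WT PBS, 74.0, 74.9 and 80.7 CPM in WT Tau, 93.7, 96.5 and 92.8 CPM in KO PBS and 65.8, 85.9 and 85.2 CPM in KO Tau. Its lowest value was that of library 711, and the log2 fold change was -0.22 over all libraries and -0.16 without 711.

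The clustered protocadherins were then counted as a family, chosen after Pcdhga2 was seen. Of 54 tested, 50 had a negative log2 fold change and 10 of these had an unadjusted p under 0.05 (background 2.29%), while 4 had a positive one, with a median of -0.16. By genotype 39 of 54 were negative in WT (median -0.09) and 52 of 54 in KO (median -0.28). Pcdhga2 was the only member without overlap in both genotypes (background 0.258%). Because the members share exons they are not independent of one another.

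Srr, the serine racemase that makes the NMDA receptor co-agonist D-serine, was at 49.9, 54.0 and 54.3 CPM in WT PBS, 45.6, 45.2 and 49.7 CPM in WT Tau, 53.2, 50.1 and 46.1 CPM in KO PBS and 44.7, 43.7 and 43.5 CPM in KO Tau. Its log2 fold change was -0.17 (SE 0.05), -0.18 in WT and -0.17 in KO, and the WT groups were kept apart by 49.7 CPM in library 773 against 49.9 CPM in library 791.

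Lrrc8c and Lrrc8b encode subunits of the volume-regulated anion channel. This family was counted after its members were seen, and 2 of the 4 tested were lower without overlap in both genotypes (background 0.258%). Lrrc8c was at 13.0, 14.4 and 13.7 CPM in WT PBS, 11.5, 12.2 and 11.02 CPM in WT Tau, 14.4, 14.0 and 12.7 CPM in KO PBS and 7.96, 10.4 and 12.6 CPM in KO Tau. Lrrc8b, named after its values were seen, was at 49.1 to 58.0 CPM in WT PBS, 45.3 to 48.3 CPM in WT Tau, 52.8 to 84.8 CPM in KO PBS and 40.5 to 46.8 CPM in KO Tau. Its log2 fold change was -0.38 (SE 0.12), and the 84.8 CPM belonged to library 752. The obligatory subunit Lrrc8a had a log2 fold change of -0.25 (SE 0.08) and Lrrc8d one of -0.11 (SE 0.08). In the average all 4 were negative, and 3 had an unadjusted p under 0.05 (background 2.29%). Lrrc8d differed between the genotypes, at 0.05 in WT and -0.28 in KO, and its Tau and PBS libraries overlapped in each.

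Hspa12a, an atypical member of the Hsp70 family, was lower in both genotypes by unequal amounts. It stood at 331, 334 and 342 CPM in WT PBS and 327, 324 and 330.1 CPM in WT Tau, but at 431, 370.4 and 362 CPM in KO PBS and 251, 279 and 259 CPM in KO Tau. The WT groups nearly touched, at 330.1 against 331 CPM, and the KO groups lay far apart. The log2 fold change was -0.05 in WT and -0.55 in KO, and the unadjusted interaction p was under 0.05. It was the only gene that DESeq2 called when the WT and KO differences of a 4-group fit were averaged (log2 fold change -0.29, SE 0.06, adjusted p = 0.00566), an alternative added after the data were seen.

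The other named lower genes had similar small differences. Ankrd52, a regulatory subunit of protein phosphatase 6, had a log2 fold change of -0.23 (SE 0.07). Zc3h12b, of a family of RNA-binding zinc finger ribonucleases, had -0.35 (SE 0.10), and its lowest value was the 6.14 CPM of library 712. Zbtb9 had -0.23 (SE 0.07) and Tmem201, a protein of the inner nuclear membrane, had -0.15 (SE 0.05), with 72.5 to 79.6 CPM in the 6 Tau libraries against 80.8 to 87.7 CPM in the 6 PBS libraries. Cs, citrate synthase of the tricarboxylic acid cycle, was named after its values were seen and stood at 287 to 299 CPM with Tau and 307 to 326 CPM with PBS, without overlap over all 12 libraries, at a log2 fold change of -0.11.

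The lowest p and separation in both genotypes did not coincide. Arhgap28, a GTPase-activating protein chosen after its values were seen, had the lowest p of all genes, with a log2 fold change of 1.87 (SE 0.38). It stood at 0.159 to 0.296 CPM in WT PBS, 0.294 to 1.06 CPM in WT Tau, 0.125 to 0.374 CPM in KO PBS and 0.884 to 1.88 CPM in KO Tau, so WT library 771 overlapped WT PBS, and PBS levels were near the limit of 3 counts. Avp, the vasopressin precursor, also overlapped in WT and not in KO, at 0.207 to 0.530 CPM in WT PBS, 0.439 to 1.01 CPM in WT Tau, 0.814 to 1.44 CPM in KO PBS and 2.37 to 2.96 CPM in KO Tau, with a log2 fold change of 1.14 (SE 0.26). In all, 15 genes (0.0994%) had an unadjusted p under 0.05 in each genotype in the same direction and 16 (0.106%) in opposite directions. DESeq2 called 37 of 15098 genes within KO (3 higher, 34 lower). Of these, 4 were among the 92: Hspa12a, Map3k13, Chchd1 and Slc7a11 (10.8% of the 37 and 4.35% of the 92), beside 0.609% of all genes tested. The same KO libraries were used to choose the 92, so this overlap was partly fixed in advance.

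Gene lists were described by the number of tested members in each direction, beside all genes tested, of which 7097 of 15098 were higher and the median log2 fold change was -0.01. With library totals in place of TMM factors that median was 0.02, and the small medians of dentate granule cells, microtubule-associated proteins, heat shock proteins and clock genes given below turned positive (0.01 to 0.02), while those of the other lists and families described here kept their sign. The lists were chosen with earlier results of these data known. No member of any list passed the FDR, and no list score separated Tau from PBS in both genotypes: of 49 list scores, 13 separated in WT and 1 in KO. Of all genes tested, 12% separated in WT and 8.57% in KO. Some lists share genes and all share the same libraries, so their scores are not independent.

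**Figure D3:**
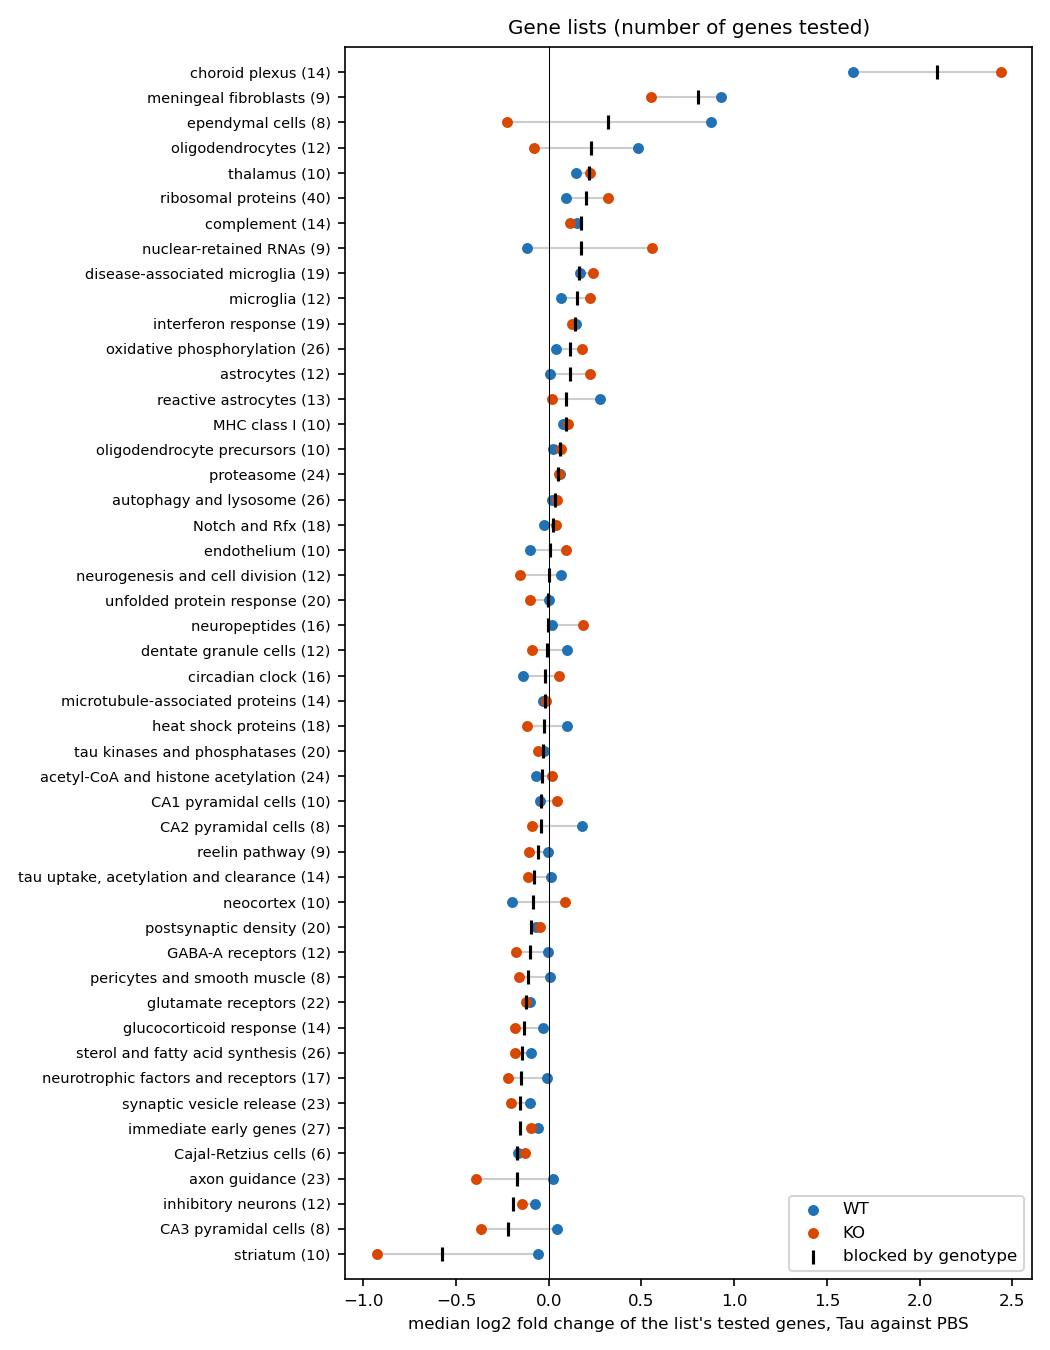
Median log2 fold change of Tau against PBS over the tested genes of each list (y axis, number of genes in parentheses; lists with under 6 tested genes left out), in WT (blue), in KO (orange) and blocked by genotype (black mark). Choroid plexus markers lie farthest from 0 at 2.09, and many lists have WT and KO medians on opposite sides of 0.

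Markers of the choroid plexus, the ventricular epithelium that makes cerebrospinal fluid, had the widest differences. All 14 tested were higher with Tau, 13 with an unadjusted p under 0.05 (background 2.86%), at a median log2 fold change of 2.09 (1.64 in WT, 2.44 in KO). Ttr, the transthyretin carrier secreted by this epithelium, was at 21.9, 44.2 and 29.0 CPM in WT PBS, 84.1, 477 and 24.1 CPM in WT Tau, 112, 17.6 and 137 CPM in KO PBS and 229, 41.6 and 3767 CPM in KO Tau. Library 713 alone held most of the signal, library 772 the next, and libraries 771, 773 and 712 lay within the range of the 6 PBS libraries. The summed level of the 14 markers ran from 219 to 496 CPM with PBS and from 298 to 5404 CPM with Tau. Without 713 the median log2 fold change was 0.92, and without 772 it was 1.83.

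Kcnj13, the Kir7.1 potassium channel of this epithelium, was the only choroid plexus marker among the 92 genes (background 0.609%). It was at 0.637, 0.724 and 0.652 CPM in WT PBS, 1.18, 7.49 and 1.46 CPM in WT Tau, 1.02, 1.25 and 2.04 CPM in KO PBS and 2.08, 2.68 and 25.9 CPM in KO Tau. Its log2 fold change was 2.61 (SE 0.69), 1.57 without library 713 and 2.17 without 772, and 2.08 against 2.04 CPM was the gap that kept the KO groups apart. The markers Slc4a5, a bicarbonate transporter, and Kcne2, a potassium channel subunit, overlapped in both genotypes and were near the limit of 3 counts in several PBS libraries. They reached 22.6 and 18.4 CPM in library 713. Sostdc1, a secreted inhibitor of BMP and Wnt signals, had a log2 fold change of 1.70 (SE 0.60), with overlap in KO.

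Markers of meningeal fibroblasts were higher in 8 of 9, with a median of 0.81 (0.41 without library 772) and 3 at an unadjusted p under 0.05 (background 2.86%). Igf2, a growth factor of choroid plexus and meninges, was at 34.6, 21.3 and 34.0 CPM in WT PBS, 34.4, 109 and 44.9 CPM in WT Tau, 26.1, 43.9 and 48.8 CPM in KO PBS and 43.6, 84.8 and 159.5 CPM in KO Tau. The groups overlapped in both genotypes, with the highest values again in 772 and 713, and its log2 fold change of 1.18 (SE 0.34) was 0.90 without 772 and 0.91 without 713. The collagen genes Col3a1 (0.91) and Col1a2 (0.89) were highest in libraries 772 and 712. Foxf1, by contrast, had a log2 fold change of 0.90 without 713, 0.85 without 772 and 0.86 without 711. The mean choroid plexus score was itself higher with Tau, by 1.16 in WT and 1.55 in KO. As a covariate it therefore takes up part of the Tau difference, and the source of any shift was not tested. With this covariate, an alternative applied to lists after the data were seen, the medians of several lists described below lay nearer to 0. That of complement genes was 0.02 in place of 0.18, that of interferon-response genes 0.01 in place of 0.14 and that of immediate early genes -0.03 in place of -0.16. The ribosomal median stayed at 0.20 and that of oxidative phosphorylation was 0.12 in both fits. Other medians lay farther from 0. That of axon guidance genes was -0.23 in place of -0.17, that of Cajal-Retzius markers -0.22 in place of -0.17 and that of heat shock genes -0.10 in place of -0.02.

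**Figure D4:**
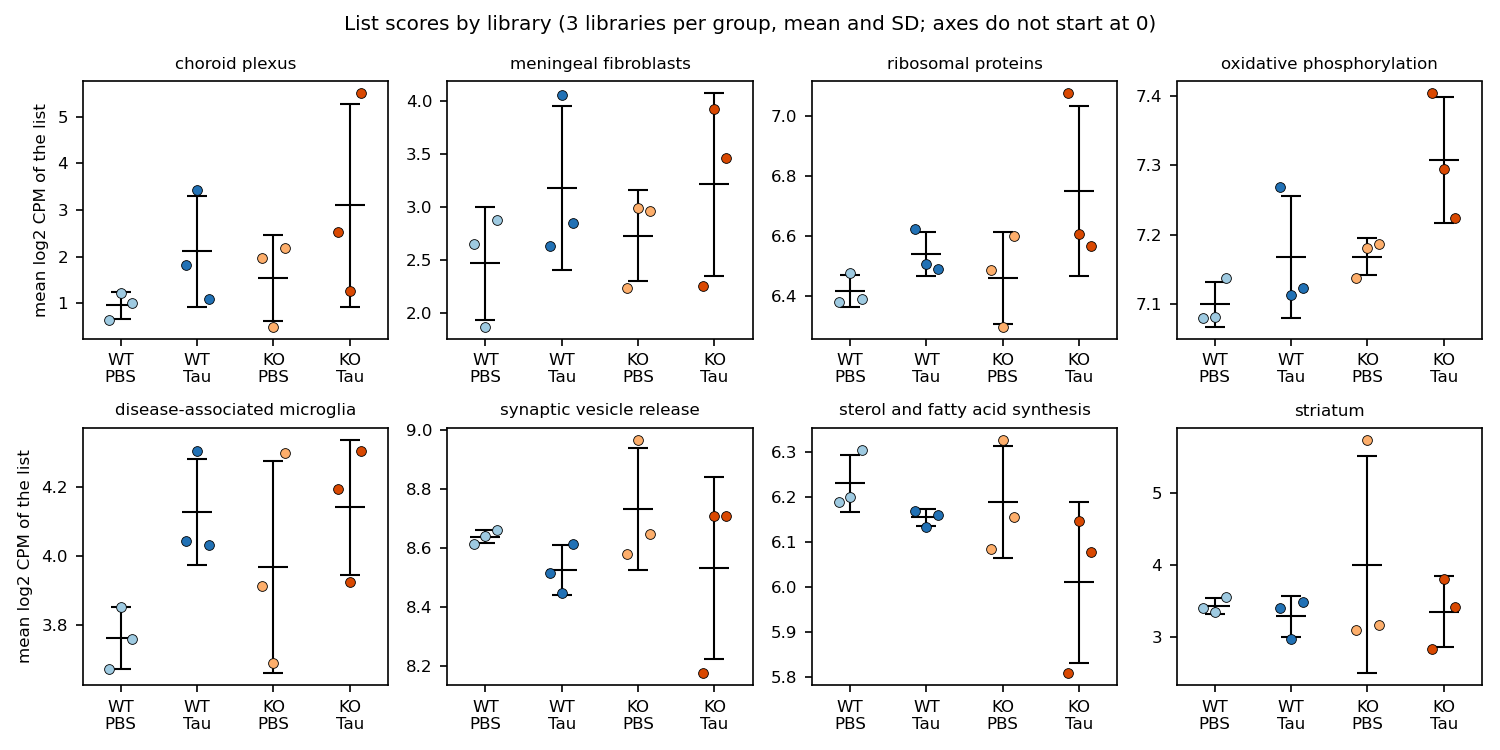
Mean log2 CPM of 8 gene lists (y axes, which do not start at 0) in each library of the 4 groups (x axis), with the mean and SD of 3 libraries as black bars. Choroid plexus markers are highest in library 713 of KO Tau and 772 of WT Tau, ribosomal proteins in library 711 of KO Tau, and striatum markers in library 752 of KO PBS; no list separates Tau from PBS in both genotypes.

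Genes of the ribosome and the respiratory chain were higher with Tau as groups. All 40 ribosomal protein genes of the list were higher, 19 with an unadjusted p under 0.05 (background 2.86%), at a median of 0.20 (0.09 in WT, 0.32 in KO). Over every cytosolic ribosomal protein gene tested, 77 of 77 were higher, 70 in WT and 76 in KO. Of these, 7 were among the 53 genes higher in both (background 0.351%): Rpl5, Rpl11, Rpl35a, Rpl36a, Rps4x, Rps19 and Rps27a. Rpl11, a protein of the large subunit, was at 77.5, 80.0 and 77.5 CPM in WT PBS, 105, 89.3 and 83.0 CPM in WT Tau, 83.9, 75.2 and 88.6 CPM in KO PBS and 131, 93.8 and 90.7 CPM in KO Tau. Library 711 had the highest value, and the KO groups were kept apart by 90.7 CPM in 713 against 88.6 CPM in 753. Rpl5 had a log2 fold change of 0.30 (SE 0.09), 0.22 without 711. Without 711 the list median was 0.11. Ribosomal protein genes have many processed pseudogenes, so reads shared with these copies make single genes of the group uncertain.

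Of 26 oxidative phosphorylation genes 22 were higher, 8 with an unadjusted p under 0.05 (background 2.86%), at a median of 0.12 (0.04 in WT, 0.18 in KO), which was 0.05 without library 711. Cox7c, a small subunit of complex IV, was at 51.3, 48.0 and 52.0 CPM in WT PBS, 71.1, 53.8 and 54.4 CPM in WT Tau, 49.0, 49.1 and 52.1 CPM in KO PBS and 86.2, 60.4 and 54.2 CPM in KO Tau. All 6 Tau libraries lay above all 6 PBS libraries, with libraries 771 and 711 well above the rest. Atp5e, a subunit of ATP synthase, had a log2 fold change of 0.28 (SE 0.09), and Uqcrb of complex III one of 0.24 (SE 0.07). Complex I genes named Nduf were higher in 38 of 44, and 2 of these, Ndufa5 and Ndufb3, separated in both genotypes (background 0.351%).

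The ribosomal and respiratory genes are short, and the higher and lower genes differed in exon length. The median exon length was 1972 bases among the 53 genes higher in both genotypes, 5951 bases among the 39 lower in both and 4434 bases among all others. Among 5 equal length classes, the shortest (55 to 2475 bases) held 198 higher and 21 lower genes at an unadjusted p under 0.05, and the longest (7599 to 123179 bases) held 36 higher and 133 lower. The shortest class held 32 of the 53 higher genes and 1 of the 39 lower ones. The slope of log2 CPM on doublings of exon length lay between 0.0160 and 0.0445 in KO PBS and between -0.0486 and -0.0112 in KO Tau, without overlap, and between 0.0032 and 0.0296 in WT PBS and -0.0409 and 0.0075 in WT Tau, with overlap. RNA integrity values were not used here.

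**Figure D5:**
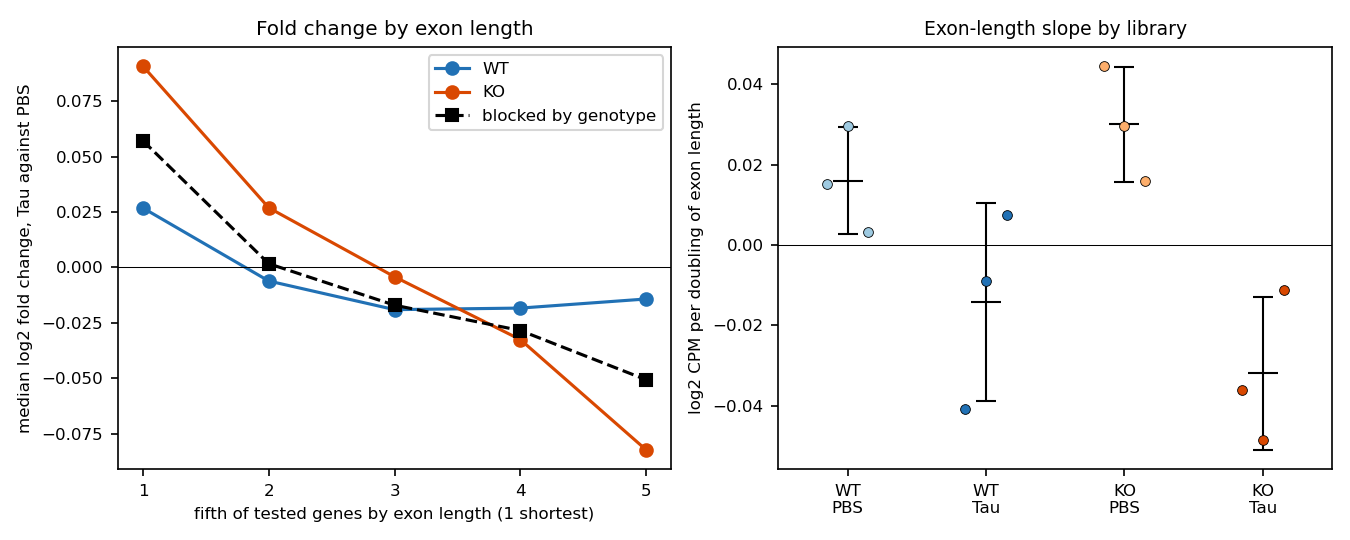
Left, median log2 fold change of Tau against PBS (y axis) in 5 equal classes of the tested genes by exon length (x axis, 1 shortest), in WT, in KO and blocked by genotype; it falls from 0.06 in the shortest to -0.05 in the longest class in the blocked fit. Right, slope of log2 CPM on doublings of exon length in each library of the 4 groups, with mean and SD of 3 libraries; KO Tau lies wholly below KO PBS.

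After each library's trend on exon length and GC content was removed, an alternative added after the data were seen, 72 genes separated in both genotypes in the same direction, 33 higher and 39 lower. Of the 92 genes, 29 were among them (31.5% of the 92 and 40.3% of the 72). Of the 24 genes chosen by lowest p, 12 were kept, among them Foxf1, Atp1b3, Arhgap18, E130311K13Rik and 2410018L13Rik of the higher and Pcdhga2, Map3k13, Sik2, Zc3h12b, Lrrc8c and Zbtb9 of the lower. Slc7a11, Prdx1, Supt4a and Srr no longer separated in both genotypes, and neither did Kcnj13 or Hspa12a. The same held for Spcs1, Adi1, Chchd1, Ankrd52, Dscam and Tmem201 of the 24. Of the other genes named in this text, Cox7c, Ndufa5, Ndufb3, Acaca, Ptprc and Clec5a were not kept. Among the ribosomal protein genes of the 92, only Rpl11 and Rps19 were kept. The signs of all 24 were unchanged. The log2 fold change was 0.43 for Slc7a11, 0.20 for Prdx1, 0.11 for Supt4a, -0.18 for Srr, 2.52 for Kcnj13 and -0.24 for Hspa12a. The ribosomal list median was 0.15 after this step, that of oxidative phosphorylation 0.02 in place of 0.12, and 50 of 54 clustered protocadherins were still negative (median -0.16).

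Microglial and lysosomal genes were mostly higher by small amounts. Of 19 genes of disease-associated microglia, the state described around amyloid and tau deposits, 15 were higher and 5 had an unadjusted p under 0.05 in that direction (background 2.86%), at a median of 0.17 (0.17 in WT, 0.24 in KO). The median was 0.10 without library 711 and also without 752, and 0.09 with the choroid plexus covariate. Cd63, a tetraspanin of endosomes that choroid plexus also expresses, was at 51.5, 53.2 and 50.7 CPM in WT PBS, 69.9, 74.2 and 56.6 CPM in WT Tau, 50.5, 44.9 and 64.8 CPM in KO PBS and 87.5, 63.4 and 79.2 CPM in KO Tau. Only KO libraries 753 and 712 overlapped, and the log2 fold change was 0.44 (SE 0.11), 0.43 without 713 and 0.39 without 711. Ccl6, a chemokine of myeloid cells, had 0.74 (SE 0.22), Cd9 0.38 (SE 0.14) and Lgals3, galectin-3, 0.78 (SE 0.34), with 1.42 in WT and 0.24 in KO for Lgals3.

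Homeostatic microglia markers were higher in 11 of 12 without an unadjusted p under 0.05 for any, at a median of 0.15, which was 0.01 without library 711 and 0.10 without 752. Complement genes were higher in 13 of 14 (median 0.18, none under 0.05, 0.10 without 772 and 0.12 without 752) and interferon-response genes in 13 of 19 (median 0.14, -0.01 without 772). Among the 92 genes, chosen after their values were seen, Ptprc (CD45, of all leukocytes) was at 2.95 to 3.13 CPM in WT PBS, 3.17 to 4.04 CPM in WT Tau, 3.42 to 4.01 CPM in KO PBS and 4.13 to 5.75 CPM in KO Tau. Clec5a, a myeloid lectin receptor, was at 1.78 to 2.17 CPM in WT PBS, 2.18 to 3.40 CPM in WT Tau, 1.69 to 1.81 CPM in KO PBS and 2.17 to 4.23 CPM in KO Tau. Of 26 autophagy and lysosome genes 17 were higher (median 0.03), led by Lamp2 (0.16, SE 0.06), a lysosomal membrane protein, and Npc2 (0.16, SE 0.07), a lysosomal cholesterol carrier. Astrocyte markers were higher in 10 of 12 at a median of 0.11, which was -0.03 without 711. Sox9, an astrocytic transcription factor, had 0.32 (SE 0.13), and 0.20 without 711.

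Synaptic genes were mostly lower. Of 23 genes of synaptic vesicle release 1 was higher and 22 were lower, 3 with an unadjusted p under 0.05 (background 2.29%). The median was -0.15 (-0.10 in WT, -0.21 in KO), and by sign 17 were lower in both genotypes (background 27.1%). Unc13a, a vesicle priming factor, had -0.24 (SE 0.09), and Rims1, an active zone scaffold, had -0.28 (SE 0.11), with 113 CPM in library 752 against at most 74.2 CPM elsewhere. Without 752 the log2 fold change of Rims1 was -0.16.

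The list median of vesicle release genes was -0.07 without library 711 and -0.11 without 752. Glutamate receptor genes were lower in 19 of 22 (median -0.12), among them Grin1, the obligatory NMDA receptor subunit, at -0.21 (SE 0.07). Its values were 357, 371 and 361 CPM in WT PBS, 314, 339 and 358 CPM in WT Tau, 403, 402 and 414 CPM in KO PBS and 286, 319.9 and 374 CPM in KO Tau. KO separated and WT did not. Postsynaptic density genes were lower in 15 of 20 (median -0.10, -0.16 without 711, and 0.00 with length and GC removed), with Dlgap2, a scaffold, at -0.22 (SE 0.07). Axon guidance genes were lower in 21 of 23 at a median of -0.17, but 0.02 in WT and -0.39 in KO. That median was -0.04 without library 751 and -0.10 with length and GC removed. The receptor Robo2 had -0.22 (SE 0.10).

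Markers of several neuron types were also lower. Those of CA3 pyramidal cells were lower in 7 of 8 at a median of -0.22 (0.04 in WT, -0.37 in KO). Those of inhibitory neurons were lower in 10 of 12 at a median of -0.19, which was -0.09 without library 711 and also without 752. Markers of Cajal-Retzius cells, which make reelin, were lower in 4 of 6 (median -0.17, -0.11 without 711). No member of these 3 lists had an unadjusted p under 0.05. Thalamus markers went the other way, higher in 7 of 10 with 1 at an unadjusted p under 0.05 (background 2.86%). Their median was 0.22 (0.14 in WT, 0.22 in KO), and 0.05 without 711. Oligodendrocyte markers were higher in 11 of 12, 1 of them at that level (background 2.86%), at a median of 0.23 (0.48 in WT, -0.08 in KO) and of 0.12 with the choroid plexus covariate. The part of these cell types in the values of the synaptic genes was not tested.

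Genes of sterol and fatty acid synthesis were lower in 21 of 26, 7 with an unadjusted p under 0.05 (background 2.29%). By sign 18 were lower in both genotypes (background 27.1%), and the median was -0.15 (-0.10 in WT, -0.18 in KO). The median was -0.08 without library 711 and -0.07 with the choroid plexus covariate. Acaca, acetyl-CoA carboxylase, which starts fatty acid synthesis from acetyl-CoA, was among the 39 genes lower in both. It was at 46.6, 47.0 and 47.9 CPM in WT PBS, 46.2, 44.2 and 43.6 CPM in WT Tau, 52.9, 55.4 and 56.2 CPM in KO PBS and 42.3, 44.97 and 49.6 CPM in KO Tau. The gap in WT was small, and the log2 fold change was -0.17 (SE 0.06). Mvd of the mevalonate pathway had -0.37 (SE 0.12), and Srebf2, the transcription factor of this pathway, had -0.18 (SE 0.07).

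Activity genes were mostly lower and clock genes were divided. Of 27 immediate early genes 20 were lower, 3 at an unadjusted p under 0.05 (background 2.29%), and 1 was higher at that level (background 2.86%). Their median of -0.16 was -0.09 without library 711, -0.08 without 713 and -0.07 without 752. Per1, a clock gene that is also induced by activity and glucocorticoids, was at 124, 145 and 134 CPM in WT PBS, 90.0, 97.4 and 124 CPM in WT Tau, 93.1, 87.1 and 96.8 CPM in KO PBS and 59.6, 78.0 and 81.7 CPM in KO Tau. KO separated fully and WT overlapped at about 124 CPM, where the lowest PBS and highest Tau libraries met. The log2 fold change was -0.35 (SE 0.10), -0.38 in WT and -0.33 in KO. Bhlhe40, a clock repressor, had -0.19 (SE 0.08), while the 16 clock genes had a median of -0.02, with 7 higher and 9 lower.

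Fosl2, an AP-1 factor, was at 70.1, 106 and 87.3 CPM in WT PBS, 71.6, 69.8 and 70.6 CPM in WT Tau, 60.4, 53.9 and 70.8 CPM in KO PBS and 37.1, 50.3 and 43.3 CPM in KO Tau. The KO groups did not overlap and the log2 fold change was -0.41 (SE 0.11). Npas4, an activity-dependent neuronal transcription factor, had 0.91 (SE 0.37) in the average, but 0.12 in WT and 1.65 in KO. Dusp5, a phosphatase of ERK, had -0.53 (SE 0.19) in the average, -0.06 in WT and -1.02 in KO. The unadjusted interaction p was under 0.05 for both genes.

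Genes tied to tau itself differed little. Mapt, the mouse tau gene, was at 589, 620.1 and 626 CPM in WT PBS, 594, 596 and 632 CPM in WT Tau, 646, 664 and 662 CPM in KO PBS and 568, 721 and 664 CPM in KO Tau. The groups overlapped and the log2 fold change was -0.01 (SE 0.07), -0.02 in WT and -0.0049 in KO. Of 20 tau kinases and phosphatases 17 were lower with none at an unadjusted p under 0.05 (median -0.03), led by Csnk1d (-0.11, SE 0.05), a casein kinase 1, and Mark4 (-0.16, SE 0.08), a microtubule affinity-regulating kinase. Microtubule-associated protein genes were higher in 6 of 14 (median -0.02), and heat shock genes in 7 of 18 (median -0.02). Proteasome genes were higher in 17 of 24 (median 0.05), with Psma3 of the core particle at 0.19 (SE 0.07). Acss2 itself had a log2 fold change of 0.02 (SE 0.13) for Tau against PBS, -0.10 in WT and 0.19 in KO.

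Genes of acetyl-CoA supply and histone acetylation were lower in 15 of 24 at a median of -0.03. Of these, 1 had an unadjusted p under 0.05 (background 2.29%). That gene, Kat2a, the histone acetyltransferase GCN5, was at 75.8, 75.4 and 81.3 CPM in WT PBS, 66.8, 69.5 and 77.3 CPM in WT Tau, 82.1, 86.4 and 79.9 CPM in KO PBS and 64.0, 76.4 and 76.5 CPM in KO Tau. KO separated and WT overlapped in library 773, at a log2 fold change of -0.16 (SE 0.06). Markers of dentate granule cells had a median of -0.01, which was -0.18 without library 711 and 0.28 without 751. Those of CA1 and of CA2 pyramidal cells each had a median of -0.04. Of the dentate and CA1 markers, 0 had an unadjusted p under 0.05. In CA2 the 1 such gene (background 2.86%) was Sostdc1, also a choroid plexus marker. In bulk tissue, fewer cells of a type and less RNA per cell cannot be told apart. Striatum markers were lower in 10 of 10 at a median of -0.58, which became 0.14 without library 752, the library with the striatum marker score of 5.74.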

How the data were processed

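Bulk poly(A) RNA-seq libraries of dorsal hippocampus were used, 12 from males of 17 in the series. Per the labels and the study's methods, the authors aligned reads with STAR 2.5.2 to GRCm38 (mm10), handled them with SAMtools 1.1 and counted reads on exons with HTSeq 0.9.1 in reverse-stranded mode. The deposited values are unnormalized counts per gene symbol for 24498 symbols. Samples were grouped by genotype and treatment as labelled. Genes were kept with edgeR's filterByExpr (minimum count 10, minimum total 15), leaving 15098. The comparison was fitted with edgeR 4.0.16 in R 4.3.3 (TMM factors, genotype plus treatment, quasi-likelihood F test, Benjamini-Hochberg FDR of 0.05), where the study used DESeq2. The legend of the study's bulk RNA-seq figure gives fewer KO Tau samples than were used here. A fit of the 4 groups gave WT, KO and interaction contrasts. The SE is the fold change divided by the root of F. Non-overlap was judged on TMM log2 CPM (prior count 2), and list scores are means of these values. All p-values printed without a tool are unadjusted values of this edgeR test.

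Named genes were Acss2, Mapt, the 12 higher and 12 lower genes of lowest p among those separated in both genotypes, any gene past the FDR, and up to 4 genes of lowest p per list. Others are marked as chosen after their values were seen. A few genes that this rule names are not reported here. The members and the 49 gene lists were chosen with earlier results of these data known. Alternatives were DESeq2 1.42.0, limma 3.58.1 (voom), sva 3.50.0 (1 surrogate variable), other scalings and filters, covariates, all 17 libraries, each library left out, and, chosen after the data were seen, offsets for exon length and GC content (spline of 5 df, 14996 genes), DESeq2 averages and leave-one-out fits, and the choroid plexus covariate for lists. Gene positions and lengths came from GENCODE (GRCm38), with 98.5% of symbols matched, and promoters from RefSeq (GRCm38.p6). The scripts were tested on simulated data.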

Additional observations from a re-analysis of the deposited data

Results flagged for a closer look

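In 19 of 148 sets of 6 libraries tested (12.8%), 1 library lay farther from the other 5 than Dixon's test allows at the 95% level, where chance flags about 1 in 20. The sets share libraries and some share genes, and each pools WT with KO. They are therefore not independent, and the 12.8% does not measure an excess over chance. Values are log2 CPM, or means of it over a list, and no explanation was tested.

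Library 711 (KO Tau) accounted for many of those among the Tau libraries. Its astrocyte score was 8.312 (others 7.527 to 7.743), its microglia score 5.371 (others 4.854 to 5.013), its ribosomal protein score 7.078 (others 6.492 to 6.625) and its nuclear-retained RNA score 7.733 (others 6.688 to 7.009). Its heat shock score was 6.367 (others 6.563 to 6.677) and its sterol and fatty acid synthesis score 5.809 (others 6.078 to 6.171). The reactive astrocyte score was 3.961 in library 772 (others 3.461 to 3.645). Of the named genes, Zc3h12b was at 2.642 in library 712 (others 3.024 to 3.183) and Srr at 5.637 in library 773 (others 5.447 to 5.514).

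Library 752 (KO PBS) accounted for many of those among the PBS libraries. Its striatum score was 5.737 (others 3.089 to 3.549), its CA1 score 4.65 (others 5.983 to 6.345), its CA3 score 4.368 (others 4.969 to 5.117), its glutamate receptor score 6.167 (others 6.339 to 6.438), its synaptic vesicle score 8.968 (others 8.579 to 8.661) and its Notch and Rfx score 3.618 (others 3.965 to 4.044). Library 753 stood apart for Zbtb9 at 4.227 (others 4.294 to 4.329), for GABA-A receptors at 6.07 (others 6.26 to 6.365) and for autophagy and lysosome genes at 6.91 (others 6.757 to 6.813). The endothelium score of library 751 was 3.975 (others 4.56 to 4.752).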

How the results depend on the processing

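The blocked comparison called 0 genes under each edgeR and limma alternative, while 574 to 1395 genes had a p under 0.05 before adjustment. DESeq2 passed 1 gene (Hspa12a) in the average of a 4-group fit and 0 to 1 with a library left out, the 1 being Arhgap28 without library 771. Within KO, DESeq2 called 37 genes and edgeR with 1 surrogate variable called 1. The genes separated in both genotypes in the same direction numbered 92 (53 higher, 39 lower), 97 with DESeq2's size factors (57 and 40), 117 with library totals (90 and 27), 104 with no filter (59 and 45) and 72 with length and GC offsets. With a library left out they numbered 134 (without 772) to 257 (without 773), with 171 without 711, 211 without 713 and 193 without 752, where fewer libraries have to separate. All 24 named higher and lower genes kept their sign under all 21 alternatives. Their choice by separation in both genotypes largely fixed this in advance, above all for the fits with a library left out. The log2 fold change of Acss2 became -0.1302 with voom, -0.0217 with 1 surrogate variable, -0.0043 with the dentate score and -0.0568 with the choroid plexus score as covariate, and -0.0844 to 0.0771 with a library left out (-0.0844 without 711, -0.036 without 751). That of Mapt became 0.0012 with voom, 0.0053 with the choroid plexus score and 0.0455 with the offsets, and -0.0452 to 0.0258 with a library left out (0.0258 without 711). Ttr became -0.1049 with the choroid plexus score, to which it contributes. Of 784 list medians under the alternatives, 71 changed sign. The cause of these changes was not tested.

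No paired analysis was possible because the groups share no replicate numbers. Genes at a few counts per library, such as Foxf1 and Arhgap28, are limited by depth, and 3 libraries per group limit the rest.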

Other observations

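The 5 female Tau libraries (3 KO, 2 WT) had no female PBS group, so sex and injection cannot be told apart, and the male PBS libraries they are set against also chose the genes. Values here were scaled over all 17 libraries. Of the 53 genes higher with Tau in both male genotypes, 29 (54.7%) had all 5 female Tau libraries above all 6 male PBS libraries, beside 11.1% of all genes tested (1680). Of the 39 lower genes, 22 (56.4%) had all 5 below, beside 13.2% of all genes (1986). In the female Tau libraries Slc7a11 was at 46.2 to 88.0 CPM, Prdx1 at 113 to 170.2 CPM, Map3k13 at 14.6 to 22.5 CPM, Hspa12a at 173 to 274 CPM and Dscam at 51.9 to 67.0 CPM. The slope of log2 CPM on doublings of exon length was -0.152 to 0.0261 in the female Tau libraries, -0.0486 to 0.0076 in the male Tau libraries and 0.0032 to 0.0441 in the male PBS libraries. The part of this length pattern in those counts was not tested.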
